A study of Mus musculus with 48 samples.

Results

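Liver RNA of mice that lived on a diet low in selenium (Se) and folate from conception (LL) was compared with that of mice that lived on a diet supplemented with both (HH). The comparison asks what a lifelong low supply of these nutrients does to the liver transcriptome. It holds every array titled as liver with diet HH or LL, 12 of the 48 arrays of the series, from 5 HH mice and 6 LL mice. One animal number appears on 2 of the HH arrays, so these were averaged and counted as 1 mouse (HH replicate 3). The first letter names the diet of the dam during gestation and lactation and the second letter the diet of her offspring after weaning. The Se content was 0.44 mg/kg in diet H and 0.08 mg/kg in diet L, and the folate content was 2.4 and 0.4 mg/kg. Both diets were high in fat. The offspring were males of the strain C57/BL6, had been fasted and re-fed, and were 12 weeks old when the liver was taken. Se cannot be told apart from folate here, nor the diet of the dam from the diet after weaning, since all of these changed together. How many litters the mice came from is not given in the sources used here, so littermates may be among the replicates. The labels put 6 further mice each in LH and HL, the groups that switched diet at weaning. The liver mice of HH, LL, LH and HL were fitted together. Standard errors (SE), intervals and p-values therefore measure the spread between mice pooled over these groups, not over HH and LL alone.

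Se acts largely through selenoproteins, which carry the amino acid selenocysteine. When Se is short, the mRNAs of selenoproteins are affected unequally: the cytosolic glutathione peroxidase Gpx1 and the small selenoproteins Selenow and Selenoh are known as sensitive, whereas Gpx4, which reduces lipid hydroperoxides in membranes, is known as better protected. The liver also exports selenoprotein P (Selenop), which carries Se to other organs. Folate carries one-carbon units for nucleotide synthesis and for the remethylation of homocysteine to methionine, from which the liver makes the methyl donor S-adenosylmethionine.

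Each array compared Cy3-labelled RNA of 1 mouse with a Cy5-labelled common reference, and values are log2 ratios of mouse over reference. The deposited design says that the reference RNA came from a pregnant mouse with its foetus, and the study's methods that it was pooled from intestine and liver. A ratio therefore compares mice for 1 gene and does not rank genes. In Cy3, 55.3 to 66% of the spots on HH arrays and 58.4 to 62.8% on LL arrays were well above background. All 8 hepatocyte markers, such as Alb and Ttr, were among these. The liver slides were scanned on 1 day, and each of the 6 slides held 1 array of every diet group. One animal stood apart. Over the 13102 genes well above background, the SD of the log2 distance from the other mice of its group was 0.464 for HH replicate 3. It was 0.238 to 0.293 for the other HH mice and 0.208 to 0.355 for the LL mice. In HH replicate 3, 544 genes lay over 2-fold from the mean of the other HH mice, against 27 to 115 genes in each of these. Both of its arrays showed this, with a Pearson correlation of 0.805 between their deviations from the HH mean across genes. The 4 genes chosen after their values were seen show the size of its differences. Trem2, a receptor of lipid-associated macrophages, had a log2 ratio of 2.26 there and -1.41 to -1.05 in the other HH mice. Gpnmb, a macrophage glycoprotein, was at 1.75 against -1.94 to -1.31, and Vim, the filament protein vimentin, at -0.55 against -3.17 to -2.72. Hsd3b5, a steroid-metabolising enzyme of male mouse liver, was at -3.34 against -0.01 to 0.94. It was as low in HL replicate 2 (-3.31), so this value was not particular to HH replicate 3. Where a difference turned or moved by over 1.5 times without HH replicate 3, the value without it is given too. Its arrays were on slides 3 and 6, so counts over the 6 slides hold 5 HH mice, with this one counted in both.

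**Figure D1:**
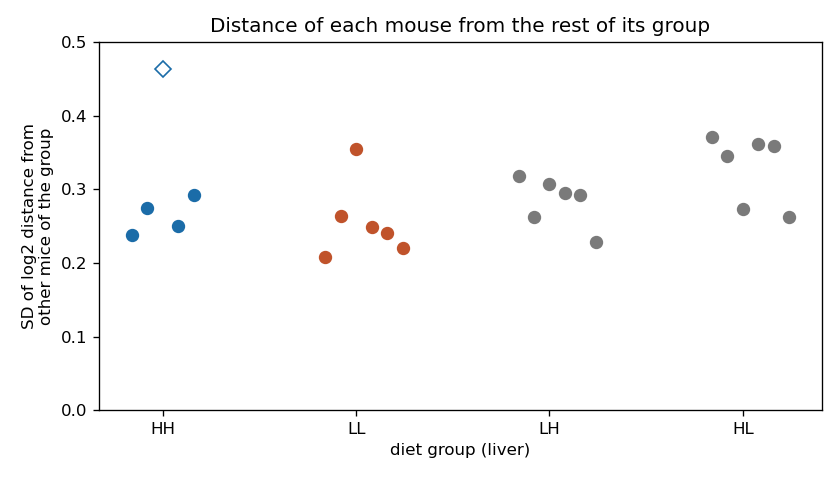
Standard deviation, over 13102 genes, of the log2 distance of each liver mouse (1 point) from the mean of the other mice of its diet group. HH replicate 3 (open diamond) lies at 0.464, above the 0.208 to 0.371 of the other 22 mice.

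Xist, the transcript of the inactive X chromosome, gave a log2 Cy3 signal of 9.44 in LL replicate 6 and 6.80 to 7.62 on the other HH and LL arrays. The Y-linked gene Eif2s3y gave 11.48 there and 10.81 to 12.14 on the others. Signal of both was thus present in LL replicate 6.

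No probe was called between LL and HH at the threshold of the study (fold change over 1.5 and false discovery rate under 0.05). The study itself reported differentially expressed genes for this comparison at that threshold, with 6 animals counted in each group. Why the counts differ was not tested. Of 41171 probes, 0 were called (0%), and the lowest adjusted p over all probes, by limma with Benjamini-Hochberg adjustment, was 1. At an unadjusted p under 0.05, 1419 probes (3.45%) stood out, 519 (1.26%) with a higher and 900 (2.19%) with a lower value in LL, and 36 of these also passed the fold threshold. The count was 926 without LL replicate 4, 2234 with arrays centred on their median in place of loess, and 2311 with both arrays of HH replicate 3 taken as separate mice. With 1 probe for each of 18433 genes, the probe with the highest signal, 206 genes (1.12%) were higher and 538 (2.92%) lower at this unadjusted level. These shares are the background for every list count below. The HH and LL mice did not overlap for 12 genes higher (0.0651%) and 63 genes lower in LL (0.342%). The difference was below 0 for 56.8% of genes and above 0 for 43.2%, with a median of -0.02 on the log2 scale. For genes well above background, the median SE was 0.13 log2 units. The 95% interval of the difference lay wholly within 1.5-fold for 86.9% of them and within 2-fold for 98.3%. On simulated data, 180 of 200 probes given a log2 change of 1 were called. The noise was normal and independent between probes, with 1 spread per probe taken over the 4 liver groups. Such data hold no mouse that stands apart and no correlation between genes, so they do not show the power for smaller changes here. As no probe was called, the genes below are described by their values. None of these passed the test, and each adjusted p was 1 (limma). Unless another name is given, differences are LL minus HH on the log2 scale.

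Among the glutathione peroxidases, Gpx4 showed the largest difference. Its log2 ratio in HH replicates 1 to 5 was -0.11, 0.13, 0.77, 0.54 and 0.57, and in LL it was -0.20 to 0.04 (median -0.08). HH replicate 1 lay among the LL mice and HH replicate 2 just above them, and the other 3 far above all of them. The difference of -0.46 ± 0.13 (SE) corresponds to a 1.37-fold lower value in LL, with a 95% interval of -0.72 to -0.19. Without HH replicate 3, which had the highest value, it was -0.36. Gpx1, the abundant cytosolic enzyme, was at 0.02, 0.71, 0.73, 0.26 and 0.26 in HH and -0.18 to 0.39 (median 0.25) in LL. Its groups overlapped, and the difference was -0.21 ± 0.14 (SE), with an interval of -0.50 to 0.08 that holds no change larger than 1.5-fold, and it was -0.12 without HH replicate 3. Gpx2, the epithelial form, differed by -0.11 (-0.18 without HH replicate 3 and 0.04 with median centring), and Gpx3, the secreted plasma form, by 0.04.

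Of 14 other selenoproteins, 0 were higher and 2 lower in LL at an unadjusted p under 0.05, against 1.12% higher and 2.92% lower over all genes. The differences of 11 were below 0 and of 3 above. The list median was -0.07, against -0.02 for all genes (0.06 with median centring). Selenow, a small thioredoxin-like protein, was at -0.24, -0.51, -0.21, -0.34 and -0.32 in HH and -1.07 to -0.46 (median -0.57) in LL, a difference of -0.34 ± 0.15 (SE). HH replicate 2 lay below 3 of the LL mice, and the other 4 HH mice above the whole LL group. Selenon, a protein of the endoplasmic reticulum (ER), differed by -0.26 and was lower in LL on all 6 slides. Without HH replicate 3, Selenow differed by -0.31 and Selenon by -0.17, and 0 of the 14 then passed the unadjusted level. Selenoh, a nucleolar protein, was at -0.88, -0.58, -0.91, -0.88 and -0.50 in HH and -1.16 to -0.56 (median -0.87) in LL, a difference of -0.15 ± 0.11 (SE) and the groups overlapped. Selenop was at 1.40, 1.75, 2.26, 1.18 and 0.96 in HH and 0.77 to 1.77 (median 1.58) in LL. Its difference of -0.08 ± 0.21 (SE) was far smaller than the spread within either group. It was 0.10 without HH replicate 3, which held the highest value, and 0.06 with median centring. Selenof, another ER protein, was at 0.35 in HH replicate 3 and -0.50 to -0.36 in the other HH mice, so that its difference of -0.23 became -0.08 without that mouse.

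The thioredoxin reductases and deiodinases gave 0 of 6 genes at the unadjusted level, with a list median of 0.06. Txnrd1, the cytosolic thioredoxin reductase, was at 0.51, -0.04, 0.12, 0.25 and 0.15 in HH and -0.01 to 0.85 (median 0.15) in LL, where LL replicate 3 held the high value. Dio1, which converts thyroxine to the active hormone, was at 2.10, 2.99, 2.08, 2.24 and 2.85 in HH and 2.13 to 3.21 (median 2.42) in LL. Their differences were 0.02 ± 0.16 (SE) and 0.12 ± 0.25 (SE). The intervals were -0.31 to 0.35 for Txnrd1, which holds no change over 1.5-fold, and -0.39 to 0.63 for Dio1. The differences were 0.00 and 0.03 without HH replicate 3. Among 8 genes that make selenocysteine or place it in proteins, 0 passed the unadjusted level. Sepsecs, the enzyme that completes selenocysteine on its tRNA, and Scly, which recovers Se from selenocysteine, differed by 0.27 and 0.23, and Trnau1ap, a partner of that tRNA, by -0.10 (-0.06 without HH replicate 3 and 0.06 with median centring).

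**Figure D2:**
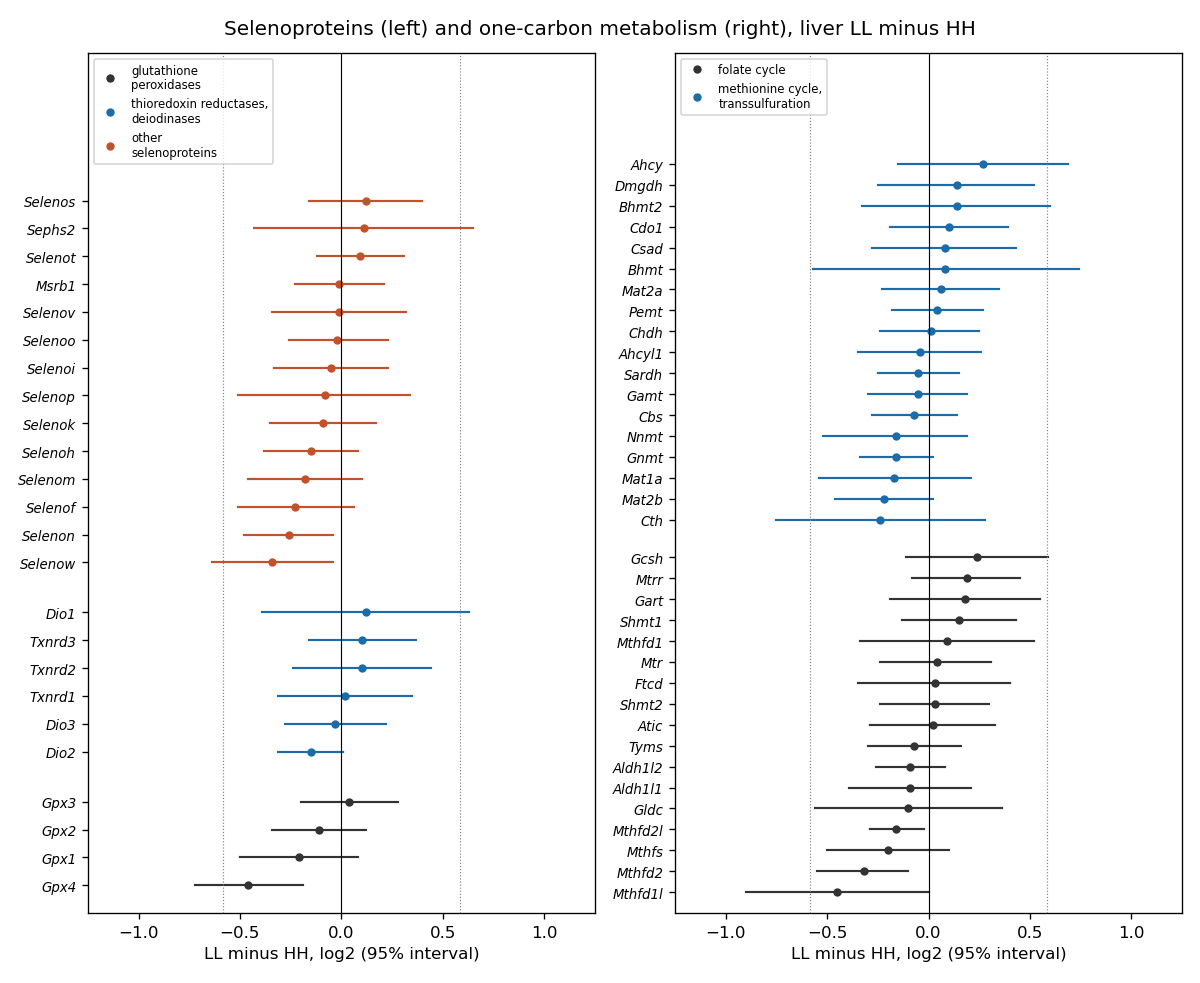
Difference LL minus HH (log2) with its 95% interval for selenoproteins (left) and reported genes of the folate and methionine cycles (right), 5 HH and 6 LL mice. Dotted lines mark 1.5-fold. The interval of Gpx4 runs from -0.72 to -0.19 and that of Mthfd2 from -0.55 to -0.10, while those of Gpx1, Selenop and Bhmt cross 0.

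In the folate cycle, 0 genes were higher and 2 of 19 lower in LL at an unadjusted p under 0.05, against 2.92% lower over all genes. The list median was -0.07 (0.06 with median centring). Over the 17 genes well above background alone, the median was 0.02. The lower ones at the unadjusted level were Mthfd2 and Mthfd2l, mitochondrial enzymes that oxidise methylene-tetrahydrofolate. Mthfd2 was at -1.44, -1.31, -1.03, -1.45 and -1.13 in HH and -1.96 to -1.41 (median -1.49) in LL. All but 2 HH mice lay above the whole LL group, and LL was lower on all 6 slides. The difference was -0.32 ± 0.11 (SE), and it was -0.26 without HH replicate 3. Mthfd2l, named after its values were seen, differed by -0.16 but was not well above background on any HH or LL array. Mthfd1l, which forms formate in mitochondria, was at -1.67, -1.81, -0.13, -1.44 and -1.67 in HH and -2.02 to -1.54 (median -1.87) in LL. Only HH replicate 3 was high, and without it the difference of -0.45 became -0.15. Of 7 genes for folate uptake and storage, 0 passed the unadjusted level. The reduced folate carrier Slc19a1 and the mitochondrial carrier Slc25a32 differed by 0.07 and 0.09, and the hydrolase Ggh by -0.16 (0.01 without HH replicate 3).

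The methionine cycle and transsulfuration genes gave 0 of 18 at the unadjusted level, with 9 differences above and 9 below 0. Mat1a, which makes S-adenosylmethionine in the liver, was at 3.95, 3.59, 3.78, 3.94 and 4.28 in HH and 3.20 to 4.17 (median 3.87) in LL, a difference of -0.17 ± 0.18 (SE). Bhmt, which remethylates homocysteine from betaine, was at 2.60, 1.94, 2.49, 2.25 and 3.05 in HH and 1.77 to 3.21 (median 2.73) in LL, with 0.08 ± 0.32 (SE). For both, the groups overlapped almost wholly. Gnmt, which disposes of excess methyl groups, was at 2.63, 2.68, 2.50, 2.54 and 2.82 in HH and 2.36 to 2.64 (median 2.46) in LL. Of its LL mice, 1 lay above the HH median and the difference was -0.16 ± 0.09 (SE). Ahcy, which splits S-adenosylhomocysteine, differed by 0.27 and Mat2b, the regulatory subunit of the extrahepatic synthetase, by -0.22, with its other probe at 0.17. Of 6 DNA methylation enzymes, 0 passed the unadjusted level. Their differences were -0.09 for the maintenance methyltransferase Dnmt1 (0.02 with median centring), -0.22 for Dnmt3b and -0.20 for Uhrf1, which recruits Dnmt1. Among 9 imprinted growth genes, 8 had a difference below 0, with a list median of -0.09. Of these 9, 1, Mest, was lower at the unadjusted level (-0.35), against 2.92% of all genes. In HH replicate 3 Mest was at -1.99 and in the other HH mice at -3.18 to -2.63, and without that mouse the difference was -0.16 and 0 genes passed. Grb10 and Plagl1 differed by -0.20 and -0.14 (0.02 without HH replicate 3).

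Genes of the respiratory chain and the ribosome had differences slightly below 0, a direction that turned when arrays were centred on their median. Of 83 genes of the respiratory chain, 0 were higher and 10 (12%) lower at an unadjusted p under 0.05, against 2.92% of all genes, and 58 differences were below and 25 above 0. The list median was -0.07 and became 0.08 with median centring, which moved the median of all genes well above background from -0.02 to 0.07. The mean of the list in a mouse was -0.29 to -0.24 in HH and -0.42 to -0.25 in LL. Atp5e, a subunit of ATP synthase, was at -0.01, -0.16, 0.17, 0.45 and -0.02 in HH and -0.55 to -0.26 (median -0.40) in LL. The groups did not overlap, and the gene was named by a rule that asks for this. LL was lower on all 6 slides, which largely follows from the lack of overlap. The difference was -0.49 ± 0.12 (SE), or 1.4-fold lower (-0.47 without HH replicate 3). Ndufb4 and Ndufs4, subunits of complex I, followed with -0.38 ± 0.11 (SE) and -0.31 ± 0.09 (SE). Ndufb4 was at 0.06, 0.22, 0.30, 0.36 and 0.48 in HH and -0.33 to 0.10 (median -0.01) in LL, where only the highest LL mouse reached the HH range. Of the 10 genes, the other 7, including Cox4i1 of cytochrome c oxidase (-0.24) and Uqcrh of complex III (-0.35), were chosen after their values were seen. When HH replicate 3 was left out, 9 genes were lower at the unadjusted level.

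Of 78 cytosolic ribosomal protein genes, 3 (3.85%) were higher and 6 (7.69%) lower in LL at an unadjusted p under 0.05, against 1.12% and 2.92% of all genes, with a list median of -0.05 (0.09 with median centring). Rpl41, the smallest protein of the large subunit, was at -0.37, -0.37, -0.03, 0.03 and -0.35 in HH and -0.83 to -0.44 (median -0.62) in LL. The groups did not overlap, and the difference was -0.39 ± 0.11 (SE), or 1.31-fold lower. Rps25 of the small subunit did not overlap either (-0.28), whereas Rpl29 was higher in LL by 0.33, with its 4 probes between 0.18 and 0.33. Leaving out HH replicate 3 gave 3 genes higher and 2 lower at the unadjusted level, and leaving out LL replicate 6 gave 1 higher and 5 lower. Rps19, also of the small subunit, was at 0.59, 0.80, 0.64, 0.38 and 0.46 in HH and 0.32 to 1.31 (median 0.64) in LL, where LL replicate 5 held the high value (0.12 ± 0.17 (SE)). Pfdn1, a subunit of the prefoldin chaperone, was at 0.63, 0.08, -0.13, 0.18 and 0.26 in HH and -0.74 to 0.55 (median 0.02) in LL, with a difference of -0.24 ± 0.24 (SE) and a wide overlap. Ribosomal protein genes have many pseudogenes, and how far their probes share signal with these was not tested.

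Genes that separated HH from LL without overlap were few. The largest that was higher in LL was Slc10a1, the transporter that takes up bile acids from blood into hepatocytes. It was at 2.15, 2.18, 1.71, 1.87 and 1.99 in HH and 2.20 to 3.03 (median 2.47) in LL. LL was higher on all 6 slides, which largely follows from the lack of overlap. The difference was 0.59 ± 0.17 (SE), or 1.51-fold, with an interval of 0.24 to 0.94, and 0.53 without HH replicate 3, which had the lowest value. Slc10a1 was the 1 of 15 bile acid genes that passed the unadjusted level, against 1.12% of all genes higher. The list median was 0.03 and became -0.07 without HH replicate 3. The oxidase Cyp27a1 differed by 0.25 and the bile acid receptor Nr1h4 by 0.22 (0.10 without that mouse). Next came St3gal5, which makes the ganglioside GM3, at 1.92, 1.83, 1.78, 1.68 and 1.85 in HH and 1.94 to 2.44 (median 2.17) in LL (0.36 ± 0.16 (SE)). Mtnr1b, a melatonin receptor, was at 0.59, 0.40, 0.36, 0.61 and 0.41 in HH and 0.61 to 1.20 (median 0.74) in LL (0.32 ± 0.10 (SE)). Tpst1, a sulfotransferase of protein tyrosines, Saraf, which restrains store-operated calcium entry, and Zfp879 and Ccdc89 differed by 0.30, 0.25, 0.22 and 0.18. Il1rap, a subunit of the interleukin-1 receptor, did not overlap at its brightest probe (0.26), but its 4 probes ranged from -0.05 to 0.26 and their median was -0.01.

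Among genes lower in LL without overlap were several of lymphocytes. Cd3d, a chain of the T cell receptor complex, was at -0.44, -0.45, -0.03, -0.18 and 0.56 in HH and -1.05 to -0.50 (median -0.59) in LL. All LL mice lay below all HH mice, although the gap to HH replicate 2 was small and HH replicate 5 alone was above 0. The difference was -0.57 ± 0.17 (SE), or 1.49-fold lower (-0.56 without HH replicate 3). Klrd1, a receptor of natural killer cells, was at -0.20, -0.42, 1.00, -0.36 and 0.17 in HH and -0.68 to -0.42 (median -0.49) in LL. Its difference of -0.55 ± 0.18 (SE) became -0.31 without HH replicate 3, which held the high value. Sash3, an adaptor in lymphocytes, was at -0.22, -0.21, 0.33, -0.15 and 0.00 in HH and -0.78 to -0.30 (median -0.54) in LL (-0.47 ± 0.11 (SE), and -0.37 without that mouse). The full list of 12 lymphocyte markers gave 2 lower (Cd3d and the granule protease Gzma, -0.27) and 2 higher (1 of them the T cell coreceptor Cd4, 0.11) at the unadjusted level. Of all genes, 2.92% were lower and 1.12% higher at that level. Gzma and Cd4 were chosen after their values were seen. The list median was -0.11, and the list mean in a mouse was -0.55 to -0.34 in HH and -0.71 to -0.47 in LL. Fewer cells of a type and less RNA per cell cannot be told apart in these whole-tissue samples. The others without overlap were Ncapg, a condensin subunit (-0.49), Trip13, a checkpoint ATPase (-0.45), Robo1, an axon guidance receptor (-0.44), and Reg2, a secreted lectin of the pancreas (-0.45). The second probe of Ncapg differed by 0.03.

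**Figure D3:**
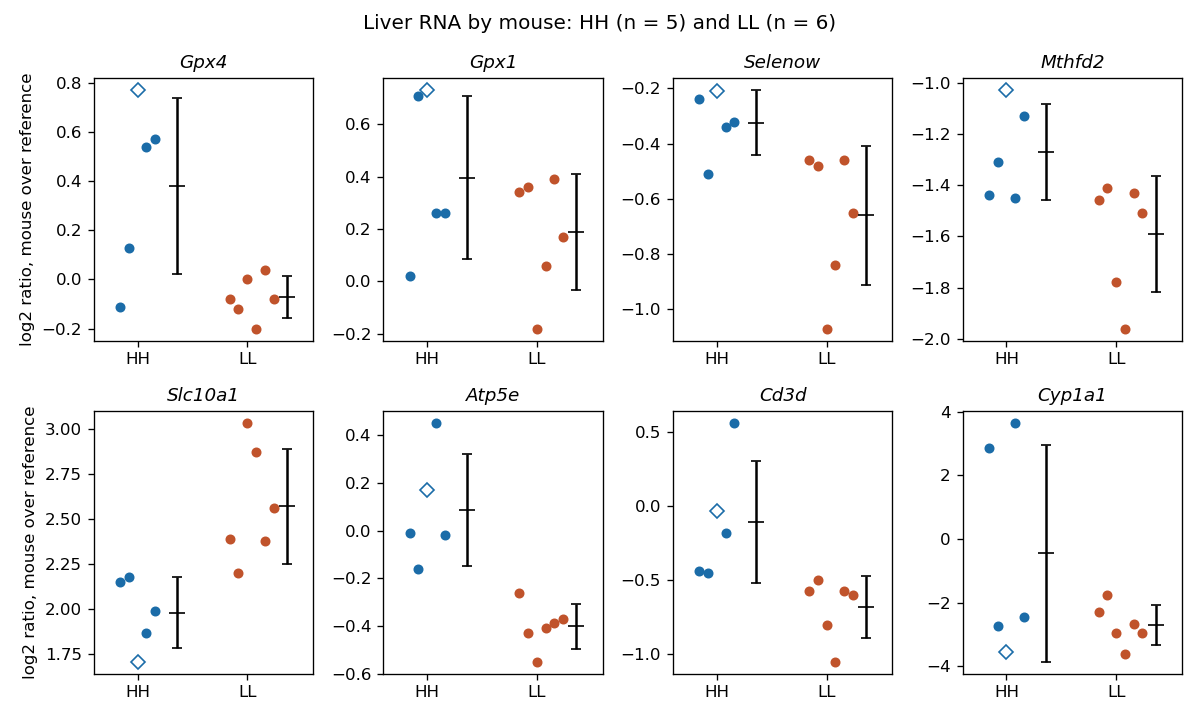
Log2 ratio of mouse over reference for 8 genes, with 1 point per mouse (HH blue, n = 5, HH replicate 3 as an open diamond, and LL orange, n = 6) and mean ± SD beside them. Slc10a1 is higher and Atp5e and Cd3d are lower in every LL mouse than in every HH mouse, Gpx4 and Mthfd2 overlap, and HH replicates 1 and 4 alone hold Cyp1a1 above 0.

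Cell cycle genes were lower in LL at the unadjusted level more often than the genes of any other list, and most of this rested on 1 mouse. Of 15 proliferation genes, 8 (Mcm2, Mcm3, Mcm4, Mcm5, Mki67, Ccna2, Cdc20 and Cdkn1a) passed an unadjusted p under 0.05, against 2.92% of all genes. All 15 differences were below 0, and their median was -0.31. Of these, Cdkn1a (-0.61, and -0.31 without HH replicate 3) encodes an inhibitor of the cell cycle. Mcm2, a subunit of the replicative helicase, was at -1.81, -1.88, -1.15, -1.73 and -1.75 in HH and -2.18 to -1.77 (median -2.02) in LL (-0.34 ± 0.11 (SE), and -0.21 without HH replicate 3). The mean of the list was -1.45 in HH replicate 3, -2.31 to -2.14 in the other HH mice and -2.60 to -2.32 in LL. Without that mouse, 1 of 15 passed the unadjusted level and the median was -0.19, with all 15 still below 0. Interferon response genes showed the same dependence. Ifit2 (-0.26) and Oas1a (-0.30), both antiviral effectors, were the 2 of 14 that passed, against 2.92% of all genes lower, with a list median of -0.25. These became 0 of 14 and -0.08 without that mouse, with -0.15 for Ifit2 and -0.14 for Oas1a. That mouse also held the highest list means of stellate cell markers (-0.83) and of Kupffer cell and macrophage markers (2.37). The part of these cells was not tested. Of 21 acute phase proteins, 1, the carrier protein Orm2, was lower (-0.34), and the list median was 0.00. Saa1 and Saa2 of serum amyloid A differed by -0.54 and -0.59 (-0.26 and -0.30 without HH replicate 3). The fatty acid transporter Cd36 was at -1.11, -0.87, 0.28, -1.34 and -0.35 in HH and -1.62 to -1.14 (median -1.48) in LL, and its difference of -0.74 became -0.50 without HH replicate 3.

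Most ER chaperones and clock genes of the Dbp phase had differences above 0. Of 26 genes of ER protein folding and the unfolded protein response, 4 (Herpud1, Creld2, Dnajc3 and Dnajb11) were higher at an unadjusted p under 0.05, against 1.12% of all genes, and 0 were lower, with 22 differences above 0 and a median of 0.28. Herpud1, a part of the degradation machinery of the ER, was at 1.13, 1.59, -0.21, 1.13 and 0.93 in HH and 1.26 to 2.10 in LL (0.64 ± 0.26 (SE), and 0.35 without HH replicate 3). Creld2, an ER protein induced by misfolding, was at 1.11, 0.11, -0.21, 1.09 and 0.83 in HH and 0.69 to 1.99 (median 1.32) in LL (0.76 ± 0.31 (SE)). HH replicate 3 had the lowest value of both genes. Without it 0 of 26 genes passed and the median was 0.24, and without LL replicate 6, which had the highest list mean, 1 passed and the median was 0.23. Hsp90b1, the chaperone GRP94, was at -0.17, -0.51, -0.80, -0.23 and 0.57 in HH and -0.24 to 0.86 (median 0.10) in LL (0.40 ± 0.24 (SE), and 0.25 without HH replicate 3), and Xbp1, a transcription factor of this response, at -0.66, -0.49, -0.03, -1.07 and -0.55 and -0.60 to 0.24 (median -0.35) (0.27 ± 0.30 (SE)). Both overlapped widely.

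Of 11 clock genes that peak with Dbp, 2 (Ciart and Tef) were higher in LL at the unadjusted level, against 1.12% of all genes, 10 differences were above 0 and the median was 0.47. Ciart, a repressor within the clock, was at 0.66, 1.89, 0.03, 0.08 and 1.57 in HH and 0.70 to 3.56 (median 2.30) in LL, a difference of 1.46 ± 0.55 (SE). LL replicates 2 and 6 did not exceed the highest HH mouse at 2 decimals, and LL replicates 1 and 3 were highest. Ciart was not well above background on 2 HH arrays. Tef, a transcription factor related to Dbp, was at -0.06, 1.00, -1.64, -0.81 and 0.35 in HH and -0.05 to 1.07 (median 0.58) in LL (0.78 ± 0.36 (SE)), and its 3 probes differed by 0.17 to 0.78. Per2 differed by 0.44. Leaving out HH replicate 3, Ciart differed by 1.26, Tef by 0.43 and the median was 0.32, with 1 of 11 genes at the unadjusted level. Of 5 genes of the opposite phase, 0 passed and the median was -0.23, with -0.43 for Arntl (-0.27 without that mouse), -0.23 for Clock and -0.30 for Nfil3. The hour at which each mouse was killed is not given in the sources used here, and its part in these values was not tested.

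**Figure D4:**
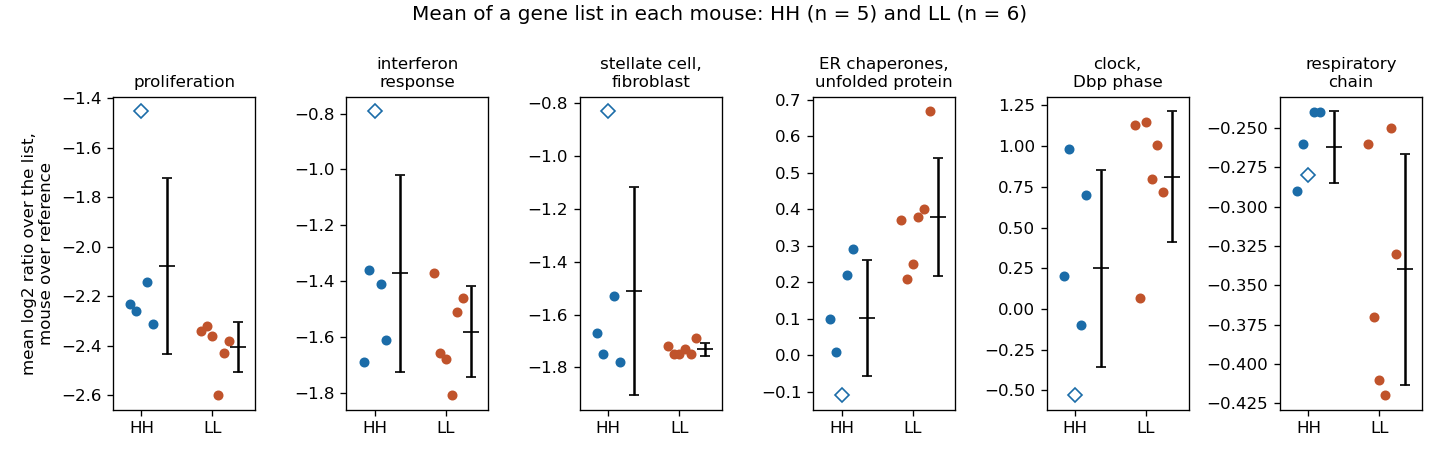
Mean log2 ratio over the genes of 6 lists in each mouse, with HH replicate 3 as an open diamond and mean ± SD beside the points. HH replicate 3 is the highest HH mouse for proliferation (-1.45), interferon response and stellate cell markers and the lowest for ER chaperones and the clock list. The list means of the respiratory chain lie between -0.42 and -0.24 in all mice.

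The lists of lipid, sugar and nitrogen metabolism gave few genes at the unadjusted level, at which 1.12% of all genes were higher and 2.92% lower. Cholesterol synthesis gave 0 of 24, with 19 differences above 0 and a median of 0.16, and 0.39 for the LDL receptor, 0.43 for Fdps and 0.16 for Sc5d of the sterol pathway. Fatty acid synthesis gave 0 of 17 with a median of 0.18, which became -0.01 without HH replicate 3. The desaturase Scd1, the kinase Pklr and Acss2, which activates acetate, differed by -0.34, 0.48 and 0.24, and by -0.37, 0.22 and 0.12 without that mouse. Fatty acid oxidation gave 1 of 29 (Cd36, above) and a median of 0.08. Acot1, a thioesterase, and Pdk4, which holds back pyruvate oxidation, differed by 0.46 and -0.61. In glucose metabolism Gys2, the liver glycogen synthase, was the 1 of 15 that passed, at 3.36, 3.28, 2.51, 2.94 and 2.86 in HH and 3.13 to 3.77 (median 3.22) in LL (0.33 ± 0.15 (SE), and 0.21 without HH replicate 3). The glucose transporter Slc2a2 differed by 0.24 (0.07 without that mouse) and the glycolytic enzyme Pfkl by -0.12 (0.01 with median centring). The urea cycle gave 0 of 9 and a median of -0.12, with -0.12 for the enzyme Otc, -0.22 for the ornithine carrier Slc25a15 (0.04 without HH replicate 3) and -0.11 for the liver glutaminase Gls2 (0.01). The median and the values of Otc and Gls2 turned above 0 with median centring (0.04, 0.04 and 0.05).

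Glutathione and Nrf2 target genes gave 0 of 27 at the unadjusted level. The list median was -0.07 (0.06 with median centring), and Gstm1, Gstm2 and Txn1, glutathione transferases and thioredoxin, differed by -0.39, -0.57 and -0.26. Of 18 xenobiotic P450 genes, 1 was higher (Cyp2c54, 0.77) and 2 were lower (Cyp1a1 and Cyp2c55, -0.24, or -0.14 without HH replicate 3). Of all genes, 1.12% were higher and 2.92% lower at the unadjusted level. Cyp2c54 was at 0.34 in HH replicate 3, and without that mouse it differed by 0.37. Cyp1a1, the P450 induced through the aryl hydrocarbon receptor, was at 2.87, -2.74, -3.54, 3.64 and -2.45 in HH and -3.62 to -1.76 (median -2.80) in LL. HH replicates 1 and 4 were thus high and the other HH mice were within the LL range, so that the difference of -2.26 ± 0.93 (SE) rested on these 2 mice. No LH or HL mouse was above -0.81. Cyp1a2, named after its values were seen, was at 3.12, 1.46, 0.47, 3.10 and 1.45 in HH, highest in the same 2 mice, and 0.68 to 2.51 (median 1.53) in LL.

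The remaining lists gave 0 genes at the unadjusted level. They were zinc transporters and metallothioneins (21 genes, median 0.05, with 0.22 for the zinc exporter Slc30a1, 0.14 for Slc39a4 and 0.14 for Slc39a7), the growth hormone axis (8 genes, -0.07) and pericentral and periportal zonation genes (8 each, -0.10 and 0.07). Within these, Igf1, Igfbp3 and Socs2 of the growth hormone axis differed by -0.09, -0.14 and -0.26. Pericentral Cyp2e1, Oat and Lect2 differed by 0.47, -0.22 and -0.11, and periportal Cyp2f2 and Hal by 0.19 and -0.22. With median centring, Igf1, Lect2 and the medians of the growth hormone axis and the pericentral list were above 0 (0.07, 0.05, 0.09 and 0.02). Leaving out HH replicate 3 gave 0.06 for Slc39a7, -0.01 for Igfbp3, 0.21 for Cyp2e1, -0.17 for Lect2 and -0.13 for Hal. Sex-biased genes of the liver gave 0 of 5 male-biased and 0 of 9 female-biased genes. Hsd3b5 differed by 0.72 and by -0.02 without HH replicate 3. Male-biased Ugt2b38 and Cyp2d9 differed by 0.31 and 0.05, and female-biased Cyp2a4 and Cyp3a44 by 0.21 and 0.19. Leaving out that mouse, Cyp2d9, Cyp2a4 and Cyp3a44 differed by -0.06, 0.04 and 0.41. The mean of the female-biased list was 0.81 in LL replicate 6, the mouse with the Xist signal. It was -0.50 to 0.21 in the other LL mice and -0.38 to 0.02 in HH. The median difference of that list was 0.13, and 0.11 without LL replicate 6. How the female-biased values relate to the Xist signal was not tested.

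Counts at the unadjusted level in other lists moved by 1 or 2 genes when a mouse was left out. Over all genes, 1.06% were higher and 3.06% lower at that level without HH replicate 3. Without LL replicate 6, these shares were 1.1% and 2.93%. A count of 1 gene in a short list is to be read beside these shares. In the lists of fatty acid synthesis, the methionine cycle, thioredoxin reductases, the urea cycle, pericentral genes and intestine, 1 gene was lower without HH replicate 3 where 0 had been. In glucose metabolism it was 1 lower and 0 higher, and in endothelial and periportal lists 1 gene was higher. No gene passed any more among the imprinted, fatty acid oxidation, stellate and neutrophil lists, 0 lymphocyte markers and 0 P450 genes were higher, and 1 folate cycle gene and 1 P450 gene were lower. Without LL replicate 6, 1 gene each was higher in cholesterol synthesis, fatty acid synthesis and selenocysteine machinery, 1 DNA methylation enzyme and 1 interferon gene were lower, 1 lymphocyte marker was higher and 0 imprinted genes passed.

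**Figure D5:**
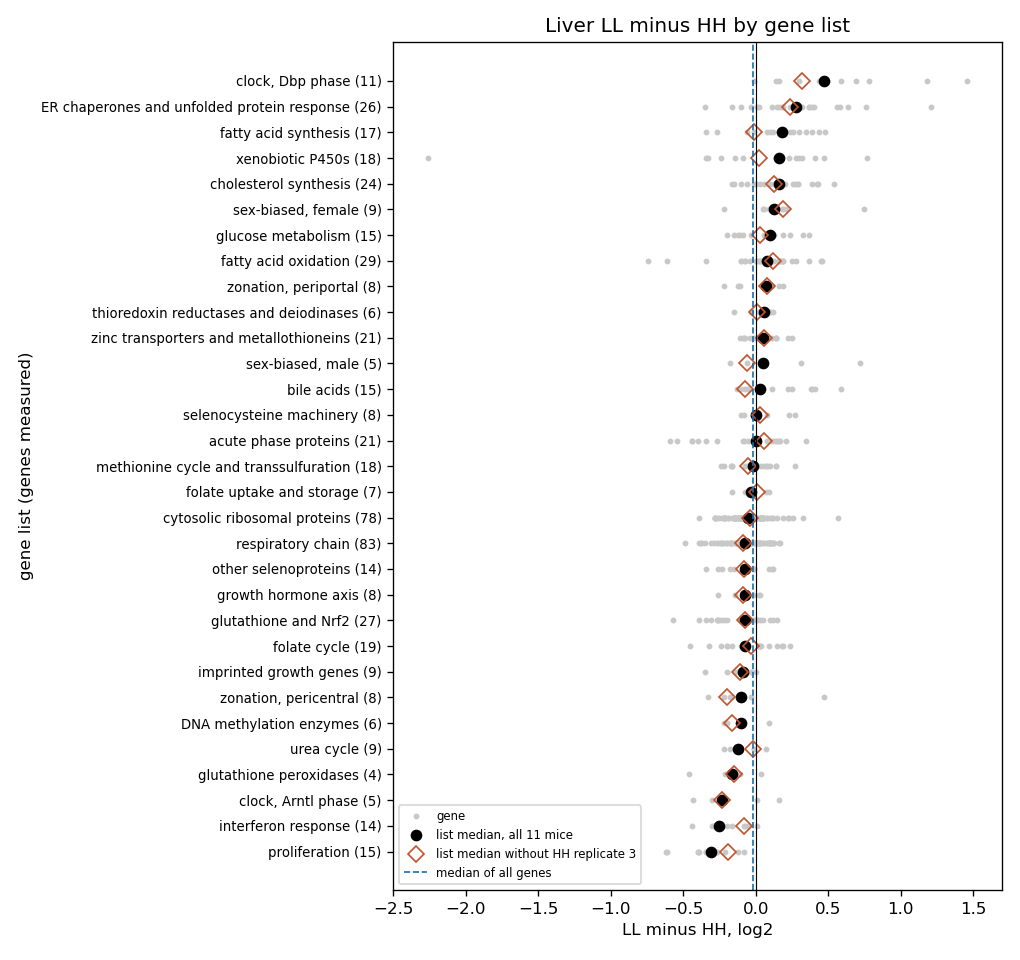
Difference LL minus HH (log2) of each gene (grey), the median of each pathway list over all 11 mice (black) and without HH replicate 3 (open diamond), with the median of all genes (-0.02) as a dashed line. The medians run from -0.31 for proliferation to 0.47 for the clock genes of the Dbp phase, and both move towards 0 without that mouse, to -0.19 and 0.32.

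Markers of other cell types set HH replicate 3 apart in some lists. The mean of 8 stellate cell and fibroblast markers was -0.83 in that mouse, -1.78 to -1.53 in the other HH mice and -1.75 to -1.69 in LL. The collagen gene Col1a1 was the 1 of 8 that passed the unadjusted level (-0.63, and -0.22 without that mouse). Of all genes, 1.12% were higher and 2.92% lower at that level. The mean of 11 Kupffer cell and macrophage markers was 0.77 to 2.37 in HH and 1.31 to 1.83 in LL, with 0 genes passing. The antimicrobial peptide Camp was the 1 of 7 neutrophil and monocyte markers that passed (-0.24), and it was not well above background on 4 HH and 6 LL arrays. Of 8 hepatocyte markers, Hnf4a, a liver transcription factor, was higher at that level (0.24), and the list mean was 1.21 to 1.59 in HH and 1.35 to 1.64 in LL. Endothelial, cholangiocyte, erythroid, platelet, adipocyte, pancreas, intestine and muscle markers gave 0 genes each. Their medians were 0.08, -0.08, -0.03, 0.01, -0.08, -0.31, -0.04 and -0.04, and with median centring those of cholangiocyte, platelet, intestine and muscle markers had the other sign (0.08, -0.09, 0.12 and 0.12). For the 2 adipocyte markers well above background, the median was 0.1. The mean of the 6 pancreas markers was -1.81 in HH replicate 3 and -2.70 to -2.49 in the other HH mice, and without that mouse their median was -0.19 and that of platelet markers -0.02. Col1a1, Camp and Hnf4a were chosen after their values were seen. The part of these cell types in the differences above was not tested.

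LL was also compared with the livers of mice that switched diet at weaning and with the colon. Against LH, whose dams had eaten diet L, 0 of 41171 probes were called (0%), with 2627 at an unadjusted p under 0.05 (6.38%) and a lowest adjusted p of 0.768 by limma. The study reported some differentially expressed genes between LH and LL, and why the counts differ was not tested. Against HL, fed diet L only after weaning, 0 were called (0%), with 1269 at the unadjusted level (3.08%) and a lowest adjusted p of 1. For the difference between LL and HH in the liver against that in the colon, 0 probes were called (0%), with 1001 at the unadjusted level (2.43%). This does not show that the tissues were alike. The colon arrays carried other animal numbers and were scanned on another day. Within the liver, these comparisons bear on the same LL mice, and those with HH share the HH mice. Side by side, the group means ± SD of Gpx4 were 0.38 ± 0.36 in HH, -0.07 ± 0.08 in LL, -0.22 ± 0.13 in LH and -0.03 ± 0.24 in HL (n = 5, 6, 6 and 6). Those of Slc10a1 were 1.98 ± 0.19, 2.57 ± 0.32, 2.81 ± 0.21 and 2.53 ± 0.40 in the same order, and those of Atp5e 0.09 ± 0.23, -0.40 ± 0.09, -0.60 ± 0.13 and -0.23 ± 0.32. Cd3d gave -0.11 ± 0.42, -0.68 ± 0.21, -0.68 ± 0.28 and -0.30 ± 0.30. In the colon, LL minus HH was -0.01 for Gpx4, -0.07 for Slc10a1, -0.14 for Atp5e and 0.31 for Cd3d. No difference of the liver values from these was called (adjusted p of 1, limma).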

How the data were processed

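Liver RNA of HH and LL mice was measured on 2-colour Agilent arrays, with the mouse in Cy3 and a common reference in Cy5 on every array. The authors deposited, for each array, the spot and local background intensities of the scanner software without normalization, and its processed intensities, background-subtracted and dye-normalized, which served as an alternative. They also deposited a table of log2 ratios, which matched loess-normalized raw medians of reference over mouse (Pearson correlation with the same ratio as mouse over reference -0.9997 to -1 across arrays), so its sign was turned. Per the labels, the authors used limma and R 3.0.2.

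Local backgrounds brighter than their spot were set to the median of their array and channel, followed by normexp (offset 50), loess within each array, and averaging of the spots of a probe. The first step changed HH replicate 2, whose log2 ratios had an SD of 0.86 with it and 0.57 without, most. Flagged outlier spots and control spots were left out. limma 3.58.1 in R 4.3.3 was fitted to 4 liver groups (5 HH, 6 HL, 6 LH and 6 LL mice), with Benjamini-Hochberg adjustment over 41171 probes. Probes were named through RefSeq accessions (27049 probes). The build of the files differed from that of the gene table, so no coordinates are given. Depth is not defined for arrays, and the number of arrays limits the precision.

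The text names the 8 genes with the largest difference in each direction among those whose groups do not overlap and that are well above background in HH or LL, 11 Se and folate genes, the 3 genes of lowest p from each list, the genes the study names for the liver, and Xist and Eif2s3y. Some genes that these rules name are not reported here. Other names were chosen after their values were seen. The members and lists were chosen with earlier results of these data known. Probe sequences were not used here. On simulated data, 180 of 200 changed and 3 unchanged probes were called. Alternatives covered background, normalization, the deposited table, dim probes, the 2 arrays of 1 mouse, slide, array position, the groups fitted, array weights, threshold, probe choice, and leaving out each mouse. The list counts without HH replicate 3 and without LL replicate 6 were chosen after seeing the data.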

Additional observations from a re-analysis of the deposited data

Results flagged for a closer look

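In 118 genes, each checked in HH and in LL (236 groups of mice), 17 groups held 1 mouse farther from the rest than Dixon's 95% critical value allows. Chance gives about 1 in 20. The values are log2 ratios of mouse over reference. HH replicate 3 was that mouse for Cyp2c54 (0.34), Gls2 (3.20), Hsd3b5 (-3.34), Mcm2 (-1.15), Mthfd1l (-0.13), Ncapg (-1.95), Selenof (0.35), Slc25a15 (2.31), Slc2a2 (1.04) and Tpst1 (0.12). LL replicate 6 was that mouse for Hal (2.01) and Xist (-1.42), and LL replicate 3 for Selenof (-0.89) and Txnrd1 (0.85). The remaining ones were Slc30a1 in LL replicate 2 (0.80), Slc39a4 in HH replicate 5 (-0.96) and Socs2 in LL replicate 5 (-1.44).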

How the results depend on the processing

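The count of called probes was 0 under every alternative run, including a false discovery rate under 0.05 without a fold threshold, for HH vs. LL, for LL against LH and HL, and for liver against colon. The count at an unadjusted p under 0.05 was 1419. It was 2234 with median centring in place of loess, 740 among probes well above background, 2311 with both arrays of HH replicate 3 taken as separate mice, and 1736 or 2264 with slide as a replicate block and the first or second array of that mouse. Leaving out 1 mouse gave 926 (without LL replicate 4) to 1743. Of 3480 gene values under alternatives, 33 changed sign. With median centring these were Dnmt1 0.02, Gls2 0.05, Gpx2 0.04, Igf1 0.07, Igfbp3 0.00, Lect2 0.05, Otc 0.04, Pfkl 0.01, Selenop 0.06 and Trnau1ap 0.06, and 16 of 44 list medians changed sign. Leaving out 1 mouse at a time gave ranges that reached or crossed 0 for Bhmt (-0.05 to 0.24), Cyp2d9 (-0.06 to 0.16), Cyp3a44 (-0.11 to 0.41), Dio1 (-0.01 to 0.26), Ggh (-0.30 to 0.01), Gls2 (-0.18 to 0.01), Hsd3b5 (-0.02 to 1.05), Plagl1 (-0.25 to 0.02), Rps19 (0.00 to 0.19), Selenop (-0.22 to 0.10), Slc25a15 (-0.34 to 0.04), Slc25a32 (0.00 to 0.17) and Txnrd1 (-0.11 to 0.10). Array weights gave Selenop 0.03 and Txnrd1 -0.05, the replicate block with the second array Txnrd1 -0.05, and the median over probes Il1rap -0.01. The cause was not tested. The replicate number is the slide, which pairs arrays and not animals, and arrays of the same slide had correlations of -0.148 to 0.23 between their deviations. Dim probes limit what was measured for Mthfd2l and Camp.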
